A study of Homo sapiens with 24 samples.

Results

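The 10 genes described here encode secreted chemokines and inflammatory cytokines: CXCL1, CXCL2, CXCL3, IL8, CXCL10, CXCL14, CCL2, CCL20, IL18 and IL6. They were taken by gene symbol from a table of 63677 genes, and all 10 were present. Their RNA was followed in 3 human cell lines labelled as liver hepatocellular carcinoma, under vehicle, decitabine, GSK-126 and both drugs together.

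Chemokines are small secreted proteins that guide leukocytes along concentration gradients by binding G protein-coupled receptors. CXCL1, CXCL2, CXCL3 and IL8 (interleukin 8, also called CXCL8) bind CXCR2 and attract neutrophils, and their genes are classical targets of the transcription factor NF-kB. CXCL10 is an interferon-induced ligand of CXCR3 on activated T cells, CCL2 attracts monocytes through CCR2, and CCL20 attracts CCR6-bearing lymphocytes and dendritic cells. CXCL14 is a chemokine expressed in many epithelia without inflammation. IL18 is made as a precursor that caspase-1 cleaves, and IL6 drives the acute-phase response of hepatocytes through the signal chain gp130.

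HepG2, SNU398 and SNU475 cells, obtained from a cell repository and labelled wild type, each formed 4 groups. The vehicle was Dulbecco's phosphate-buffered saline (DPBS). Decitabine, a deoxycytidine analogue that traps DNA methyltransferases, was given at 100 nM a day, GSK-126, which blocks EZH2, the enzyme that methylates lysine on histone H3, at 500 nM a day, and the combination group received both. Dosing lasted 3 days in all 3 lines, and cells were harvested on day 14 in HepG2 and SNU398 and on day 21 in SNU475, so that line and harvest day cannot be told apart for SNU475. Each of the 12 groups had 2 libraries, A and B, of total RNA depleted of ribosomal RNA. The labels do not say that A and B were separate cultures, so p-values measure the spread between libraries, which may be technical.

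Reads in genes, recovered from the steps between the deposited values, numbered 20424282 to 38398999 per library, 57.2% to 69.5% of the reads behind the RPKM unit. The 9 hepatocyte markers, among them ALB (albumin), summed to 12270 to 12352 scaled RPKM in the HepG2 DPBS libraries. In SNU398 the same sum was 0.603 to 49.7 and in SNU475 1.99 to 74.4 over all libraries. These defining markers of the labelled cell type were thus far lower in both lines than in HepG2. Of the 9, 7 had a group mean of at least 1 in SNU475 DPBS and 6 in SNU398 decitabine. Within each of those lines 1 library stood apart: decitabine A in SNU398 (sum 49.7, against 0.912 in decitabine B) and DPBS A in SNU475 (74.4, against 16.7 in DPBS B). Results of the 10 genes whose call changes without either library are given with and without it. RNA of the drugs' targets was present throughout, with group means of 4.45 to 18.9 for EZH2 and 5.63 to 16.5 for DNMT1.

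Levels below are scaled RPKM, reads per kilobase of gene relative to the library's reads, scaled between libraries, in the order library A, library B. Log2 changes were computed on log2(scaled RPKM + 0.5), which draws changes of low genes towards 0, and are given with the standard error (SE) of a limma model fitted to all 24 libraries. A gene was called when its p-value, adjusted over the 19377 genes tested, was under 0.05. Fold values are ratios of pooled reads with 95% counting intervals, which cover counting error only.

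CXCL1, CXCL2, CXCL3 and IL8 lie within 357 kb of each other on chromosome 4 (hg19). IL8 (ENSG00000169429) spans 4:74606223-74609433, CXCL1 (ENSG00000163739) 4:74735110-74736959, CXCL3 (ENSG00000163734) 4:74902306-74904524 and CXCL2 (ENSG00000081041) 4:74962752-74965010. The 5 other chemokine genes between them, CXCL6, PF4V1, PF4, PPBP and CXCL5, did not exceed 0.471 in any library. The 250 bases before the annotated start of each gene are shown because these 4 genes moved together below and CXCL10, also on chromosome 4, moved differently. They come from RefSeq on GRCh38.p14: CXCL1 chr4:73869143-73869392 on the plus strand, CXCL2 chr4:74099196-74099445 on the minus strand, CXCL3 chr4:74038690-74038939 on the minus strand, IL8 (listed as CXCL8) chr4:73740319-73740568 on the plus strand and CXCL10 chr4:76023498-76023747 on the minus strand. Each is written in the direction of its gene, and capitals mark matches on either strand to the NF-kB consensus, to GGAATTTCC or to TGANTCA, the AP-1 motif; matches of the first 2 overlap.
CXCL1: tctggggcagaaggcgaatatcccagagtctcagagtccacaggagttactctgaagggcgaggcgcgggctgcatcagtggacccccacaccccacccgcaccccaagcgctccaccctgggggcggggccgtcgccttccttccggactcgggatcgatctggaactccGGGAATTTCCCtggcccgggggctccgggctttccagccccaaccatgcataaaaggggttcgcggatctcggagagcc
CXCL2: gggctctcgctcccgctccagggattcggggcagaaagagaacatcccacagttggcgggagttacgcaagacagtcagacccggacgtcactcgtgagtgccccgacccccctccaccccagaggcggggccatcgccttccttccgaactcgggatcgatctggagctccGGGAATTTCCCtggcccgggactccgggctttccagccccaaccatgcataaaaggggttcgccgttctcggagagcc
CXCL3: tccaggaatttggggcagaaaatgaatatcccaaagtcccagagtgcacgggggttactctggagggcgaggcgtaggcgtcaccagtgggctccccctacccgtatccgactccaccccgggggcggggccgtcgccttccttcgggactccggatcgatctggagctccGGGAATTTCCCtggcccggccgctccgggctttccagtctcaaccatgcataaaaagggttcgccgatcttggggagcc
IL8: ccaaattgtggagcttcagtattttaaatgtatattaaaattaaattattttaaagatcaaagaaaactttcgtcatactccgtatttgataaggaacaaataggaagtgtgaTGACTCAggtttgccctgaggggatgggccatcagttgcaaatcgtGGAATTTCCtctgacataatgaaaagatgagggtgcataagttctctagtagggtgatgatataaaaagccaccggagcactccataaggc
CXCL10: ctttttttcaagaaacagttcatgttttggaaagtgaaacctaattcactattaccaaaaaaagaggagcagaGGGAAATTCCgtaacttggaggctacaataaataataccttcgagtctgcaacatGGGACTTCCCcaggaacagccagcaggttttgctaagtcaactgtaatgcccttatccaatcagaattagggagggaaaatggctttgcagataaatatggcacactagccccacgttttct

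GGAATTTCC began 78 bases before the start in CXCL1, 77 in CXCL2, 78 in CXCL3 and 91 in IL8, all on the gene's strand, and 176 bases before the start in CXCL10, on the opposite strand. It occurs in 0.413% of the 35114 windows of this length in the RefSeq table, on either strand. Of the 10 genes, 8 had an entry there, and the other 3 windows, of CXCL14, CCL20 and IL6, held no GGAATTTCC. The NF-kB consensus, found in 9.96% of all windows, matched in CXCL1, CXCL2, CXCL3, CXCL10, CCL20 and IL6. TGANTCA, found in 6.57% of windows, matched in IL8, at 137 bases before the start, and in CXCL14, at 92. Aligned to each other, the CXCL1 and CXCL3 windows were 81.4% identical, CXCL2 and CXCL3 73.3%, CXCL1 and CXCL2 68%, and the IL8 window 40.5% to 45% identical to the other 3. CpG dinucleotides numbered 18, 20 and 19 in the CXCL1, CXCL2 and CXCL3 windows, 4 in IL8 and 3 in CXCL10, against a median of 11 over all windows. A match is a string of letters and was not tested for binding.

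In DPBS the 3 lines held different sets of these RNAs. SNU475 had the broadest set: 9 genes were higher than in HepG2 and only CCL20 was lower (79.4% of all tested genes were called in that comparison). Among the 9 higher genes, the largest differences by log2 value were in IL18 (3.45 ± 0.06 SE, adjusted p = 7.69e-17, 34.8-fold) and CXCL2 (3.17 ± 0.07, adjusted p = 6.02e-16, 13.3-fold). IL6 gave 621 reads in the SNU475 DPBS libraries and 0 in those of HepG2, at least 172-fold higher against a floor of 3 reads over the group. By pooled reads CXCL14 (at least 51.6-fold), CXCL1 (50.3-fold, 13.6 to 420) and CXCL3 (26.4-fold, 10.1 to 98.5) also exceeded CXCL2. They had 0, 2 and 4 reads in HepG2 DPBS, where the pseudocount lowers their log2 values. All 10 genes were called higher in SNU475 than in SNU398 (78.1% of all genes called), with pooled reads 374-fold higher (95% counting interval 189 to 867) for IL8 and 310-fold (157 to 718) for CXCL2. Of these 10, CCL20 lost its call without SNU475 DPBS A (log2 difference 0.31, adjusted p = 0.0552, against 0.68 and 0.00265 with it). In SNU398, 4 genes were lower than in HepG2, CCL20, IL8, CXCL2 and IL18, and none was higher (76.6% of all genes called). In HepG2, CCL20 stood at 70.0 and 69.9, far above the other 9, of which IL8 at 1.42 and 1.38 was the highest.

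**Figure D1:**
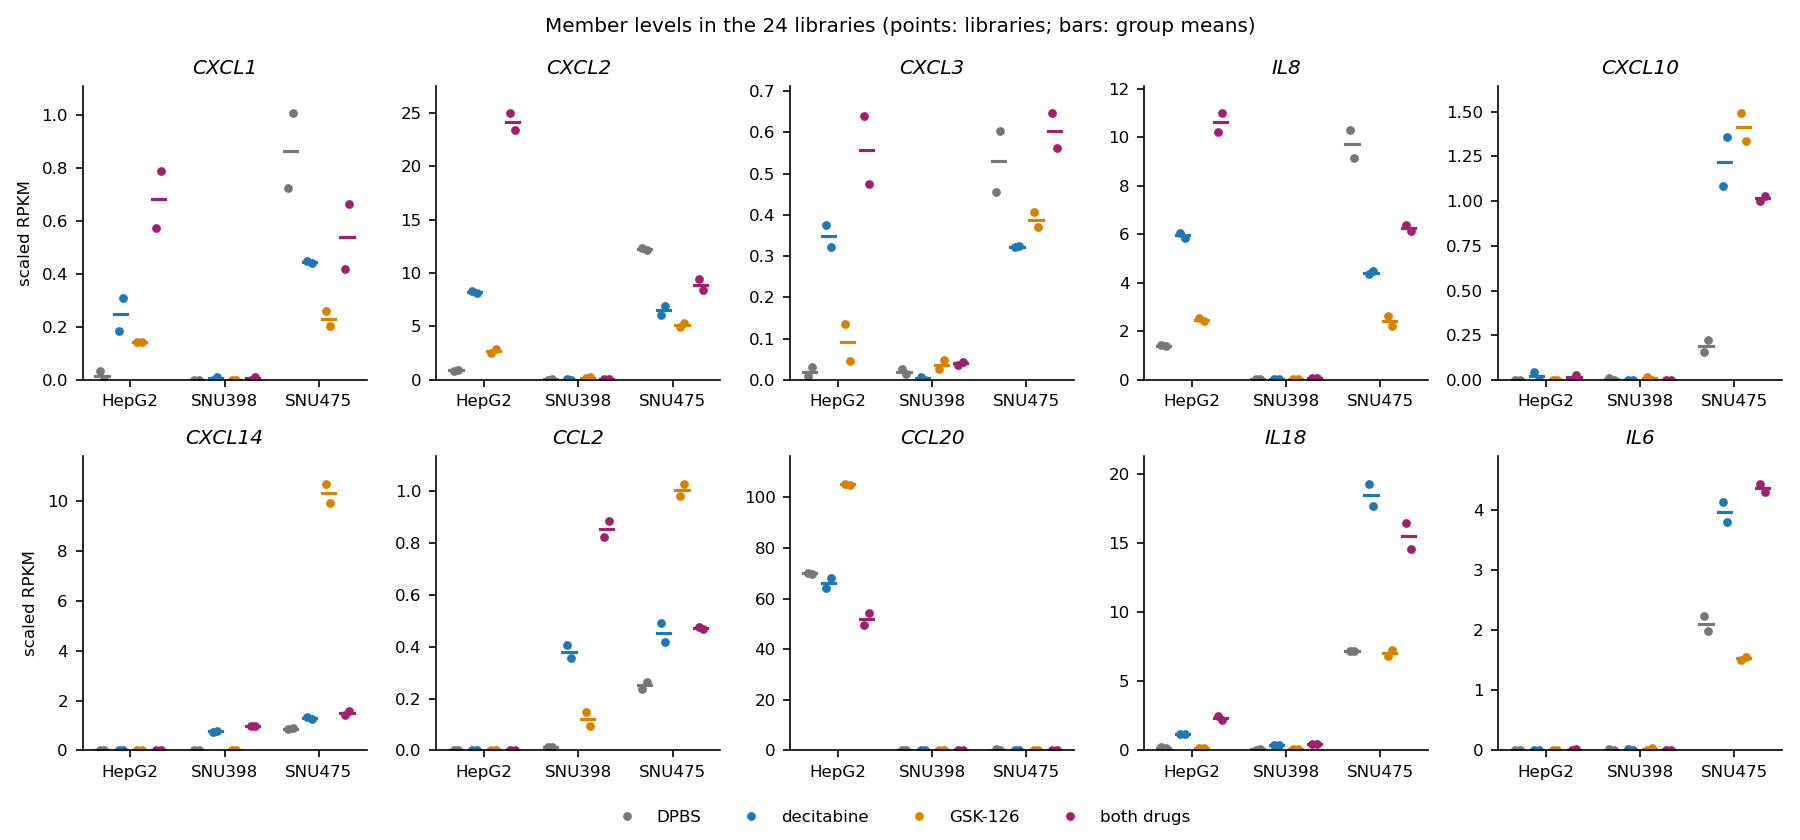
Scaled RPKM of each of the 10 genes (linear axis, with its own panel for each gene) by line and treatment, with 1 point per library, 2 per group, and bars at the group means. CCL20 is high in the 8 HepG2 libraries (49.4 to 105) and below 1 in every SNU398 and SNU475 library, while IL6 and CXCL10 are above 0.1 in SNU475 alone.

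The neutrophil-attracting group rose in HepG2. CXCL2 was 0.872 and 0.964 in DPBS, 8.33 and 8.14 with decitabine, 2.54 and 2.88 with GSK-126, and 24.9 and 23.4 with the combination. The 4 HepG2 groups did not overlap, and their order was combination, decitabine, GSK-126, DPBS. CXCL2 pooled reads were 8.99-fold (7.44 to 10.9) DPBS with decitabine, 2.94-fold (2.39 to 3.65) with GSK-126 and 26.3-fold (22.0 to 31.8) with the combination. Its log2 changes were 2.62 ± 0.07 (SE, adjusted p = 2.11e-13), 1.18 ± 0.07 (7.96e-10) and 4.12 ± 0.07 (8.54e-16). As these are bulk libraries, here and below more RNA per cell and more cells with the RNA cannot be told apart.

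IL8 kept the same order in HepG2. It was 1.42 and 1.38 in DPBS, 6.06 and 5.85 with decitabine, 2.53 and 2.41 with GSK-126, and 10.2 and 10.98 with the combination, again with no overlap between groups. The ratios to DPBS were 4.24 (3.72 to 4.85), 1.76 (1.52 to 2.05) and 7.56 (6.66 to 8.61), with log2 changes of 1.76 ± 0.06 (adjusted p = 1.39e-11), 0.64 ± 0.06 (6.19e-07) and 2.54 ± 0.06 (8.43e-14).

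CXCL1 and CXCL3 were lower in HepG2 but followed the same order. CXCL1 gave 2 reads in DPBS A and 0 in DPBS B, and measured 0.186 and 0.307 with decitabine, 0.142 in both GSK-126 libraries, and 0.574 and 0.788 with the combination. CXCL3 was 0.00998 and 0.0307 in DPBS, 0.376 and 0.322 with decitabine, 0.135 and 0.047 with GSK-126, and 0.639 and 0.475 with the combination. Neither gene's treated libraries overlapped with DPBS. With the combination both rose, CXCL1 by 1.19 ± 0.12 on the log2 scale (adjusted p = 2.83e-07) and CXCL3 by 1.02 ± 0.09 (4.66e-08), and with decitabine by 0.53 ± 0.12 (0.00138) and 0.71 ± 0.09 (5.22e-06). With so few DPBS reads the ratios were wide, 40 (10.5 to 339) for CXCL1 and 27.7 (10.4 to 104) for CXCL3 in the combination. With GSK-126, CXCL3 was not called (0.18, adjusted p = 0.0927; 0.29 and 0.0225 without GSK-126 B), and CXCL1 was called at 0.31 (0.0344) a call lost when any 1 of its 4 libraries was left out (adjusted p 0.0587 to 0.162).

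In SNU475, IL8, CXCL2 and CXCL1 fell with all 3 treatments and CXCL3 with decitabine. IL8 was 10.3 and 9.15 in DPBS, 4.37 and 4.47 with decitabine, 2.65 and 2.22 with GSK-126, and 6.37 and 6.12 with the combination. All 4 groups were separate, DPBS was highest and GSK-126 lowest. The ratios to DPBS were 0.454 (0.422 to 0.488), 0.25 (0.228 to 0.273) and 0.64 (0.598 to 0.685). The log2 changes were -1.05 ± 0.06 (adjusted p = 3.96e-09), -1.80 ± 0.06 (1.56e-11) and -0.60 ± 0.06 (1.33e-06).

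CXCL2 in SNU475 was 12.3 and 12.1 in DPBS, 6.11 and 6.92 with decitabine, 4.99 and 5.32 with GSK-126, and 9.42 and 8.39 with the combination. Its 4 groups were also separate and stood in the same order as those of IL8. The log2 changes were -0.86 (adjusted p = 3.8e-08), -1.17 (1.68e-09) and -0.44 (3.68e-05), each ± 0.07. CXCL1 was 0.724 and 1.005 in DPBS, 0.446 and 0.439 with decitabine, 0.259 and 0.202 with GSK-126, and 0.418 and 0.662 with the combination, and no treated library reached the DPBS libraries. It fell by 0.53 with decitabine (adjusted p = 0.00145), by 0.89 with GSK-126 (1.28e-05) and by 0.39 with the combination (0.00971), the last of these not called without DPBS B (0.14) or without combination A (0.158). CXCL3 was 0.455 and 0.604 in DPBS, 0.322 and 0.324 with decitabine, 0.406 and 0.369 with GSK-126, and 0.646 and 0.562 with the combination, which overlapped with DPBS. Its decitabine difference was called (-0.32, adjusted p = 0.00541), but not without DPBS B (-0.21, 0.0855). Its GSK-126 difference was not called (-0.21, adjusted p = 0.0532), but was without DPBS A (-0.32, 0.0164), with no scaling (-0.23, 0.0252) and with a pseudocount of 1 (-0.14, 0.0459).

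SNU398 held little RNA of this group. CXCL1 gave at most 1 read in a library, CXCL3 lay between 0 and 0.0481, and IL8 between 0.0211 and 0.0931. CXCL2 was 0.0381 and 0.0406 in DPBS, 0.0421 and 0.0323 with decitabine, 0.213 and 0.237 with GSK-126, and 0.123 and 0.0975 with the combination. GSK-126 stood above all other SNU398 groups (37 reads against 8 in DPBS, ratio 5.70, 2.61 to 14.2; log2 change 0.43, adjusted p = 4.77e-05). The combination also passed the test for CXCL2 (0.18, adjusted p = 0.0365). That call was lost when any 1 of its 4 libraries was left out (0.0591 to 0.174), and the value was -0.002 with quantile normalization.

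Opposite calls in HepG2 and SNU475 were counted for each treatment. With decitabine, 4 genes (CXCL1, CXCL2, CXCL3 and IL8) were called higher in HepG2 and lower in SNU475, as were 11.3% of all tested genes. With GSK-126 and with the combination these were the 3 genes CXCL1, CXCL2 and IL8, beside 10.3% and 12.1% of all genes. The difference between the lines was itself tested: for CXCL2 the SNU475 effect minus the HepG2 effect was -3.48 ± 0.09 with decitabine (adjusted p = 6.93e-13), -2.35 ± 0.09 with GSK-126 (2.0e-11) and -4.56 ± 0.09 with the combination (2.02e-14). For IL8 it was -2.82, -2.45 and -3.14, each ± 0.09 (adjusted p = 4.39e-12, 1.12e-11 and 6.96e-13). Over the 10 genes, the SNU475 and HepG2 effects differed in 8 with decitabine (57.9% of all genes called), 9 with GSK-126 (56.5%) and 9 with the combination (64.6%). CXCL10, CXCL14, CCL2 and IL6, called with each treatment, had at most 2 reads in a HepG2 library. Their differences therefore largely restate the SNU475 effects.

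Reads of 75 bases do not separate these paralogues everywhere: of the 75-base windows of the annotated transcripts, 0.245% of CXCL1, 7.07% of CXCL2 and 4.57% of CXCL3 recurred in another gene, in each case a member of this group. IL8 shared none. How reads with more than 1 match were counted was not given in the sources used here.

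CXCL10 (ENSG00000169245, hg19 4:76942273-76944650) was measurable in SNU475 alone. It was 0.154 and 0.225 in DPBS, 1.08 and 1.36 with decitabine, 1.49 and 1.34 with GSK-126, and 1.003 and 1.03 with the combination. Every treated library lay above both DPBS libraries. The ratios to DPBS were 6.47 (4.19 to 10.4), 7.49 (4.88 to 12) and 5.38 (3.44 to 8.76), with log2 changes of 1.32 ± 0.07 (adjusted p = 1.08e-09), 1.47 ± 0.07 (3.87e-10) and 1.14 ± 0.07 (3.64e-09). In HepG2 and SNU398 the gene had at most 2 reads in a library, so that no difference was detectable at this depth.

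The interferon-induced genes to which CXCL10 belongs moved in the same direction in SNU475. Of 14 such genes, 12 rose and 1 fell with each treatment, with medians of 1.15, 1.32 and 1.29 on the log2 scale against -0.01, -0.02 and -0.01 for all genes. Of all tested genes, 24.2%, 21.5% and 25.3% were called higher in SNU475 with decitabine, GSK-126 and the combination, and 27.3%, 28.5% and 29.6% lower. GBP1, an interferon-induced GTPase, went from a mean of 8.07 in DPBS to 77.8 with decitabine and 81.0 with GSK-126. In HepG2, where CXCL10 stayed at most 2 reads, 7 of the 14 rose and 2 fell with decitabine (median 0.12), 5 rose and 5 fell with GSK-126 (0.03), and 11 rose and none fell with the combination (0.77), where 35.9%, 31% and 40.6% of all genes were called higher and 18.3%, 21.7% and 25.9% lower. In SNU398, 11 rose with decitabine (0.69), 7 rose and 1 fell with GSK-126 (0.25), and 11 rose with the combination (0.75), beside 23.4%, 30% and 28.9% of all genes called higher and 15.4%, 22.4% and 18.4% lower.

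CXCL14 (ENSG00000145824, hg19 5:134906373-134914969) rose in SNU398 with decitabine and with the combination, and in SNU475 with all 3 treatments. In SNU398 it was 0.0295 and 0 in DPBS, 0.750 and 0.796 with decitabine, 0.019 and 0 with GSK-126, and 0.982 and 0.971 with the combination. Both groups that received decitabine stood apart from those that did not. The ratios to DPBS, which had 4 reads, were 51.4 (19.8 to 191) with decitabine and 64.9 (25.0 to 240) with the combination, and the log2 changes were 1.31 ± 0.05 (adjusted p = 4.48e-11) and 1.52 ± 0.05 (5.26e-12).

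In SNU475, CXCL14 was 0.852 and 0.891 in DPBS, 1.36 and 1.26 with decitabine, 10.7 and 9.95 with GSK-126, and 1.43 and 1.57 with the combination. The 4 groups did not overlap, and GSK-126 alone was the highest by far. It was 11.9-fold DPBS (10.2 to 13.9; log2 change 2.98 ± 0.05, adjusted p = 5.1e-15) with GSK-126, against 1.5-fold (1.24 to 1.82; 0.40, 5.65e-06) with decitabine and 1.73-fold (1.43 to 2.09; 0.54, 1.66e-07) with the combination. HepG2 gave 1 CXCL14 read in 8 libraries. The SNU475 minus SNU398 difference was 3.0 ± 0.07 for the GSK-126 effect (adjusted p = 1.13e-13) and -0.91 ± 0.07 for that of decitabine (5.16e-08). The annotation has antisense genes over 1.1% of the 75-base windows of CXCL14.

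CCL2 (ENSG00000108691, hg19 17:32582304-32584222) was at 0 in all 8 HepG2 libraries, where 3 reads over the DPBS group would have been 0.0292. In SNU398 it was 0.013 and 0.0138 in DPBS, 0.406 and 0.355 with decitabine, 0.148 and 0.0942 with GSK-126, and 0.824 and 0.884 with the combination. All 4 groups were separate and the combination was highest. The ratios to DPBS, which had 2 reads, were 29.2 (7.71 to 248), 9.25 (2.15 to 83.4) and 65.8 (17.8 to 551). The log2 changes were 0.78 (adjusted p = 2.33e-08), 0.27 (0.00033) and 1.40 (2.38e-11), each ± 0.05.

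In SNU475, CCL2 was 0.238 and 0.265 in DPBS, 0.491 and 0.416 with decitabine, 0.979 and 1.03 with GSK-126, and 0.476 and 0.467 with the combination. GSK-126 was the highest group here, as for CXCL14. The ratios to DPBS were 1.80 (1.14 to 2.90), 3.99 (2.68 to 6.11) and 1.87 (1.17 to 3.04), and the log2 changes 0.34 (adjusted p = 4.68e-05), 1.0 (7.07e-10) and 0.37 (1.84e-05), each ± 0.05.

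CCL20 (ENSG00000115009, hg19 2:228678558-228682272) was the most abundant of the 10 RNAs and almost all of it was in HepG2. It was 70.0 and 69.9 in DPBS, 64.1 and 68.1 with decitabine, 105 and 105 with GSK-126, and 49.4 and 54.3 with the combination. The 4 groups did not overlap. With GSK-126 it rose 1.5-fold (1.46 to 1.55; log2 change 0.58 ± 0.18, adjusted p = 0.0119; 0.254 with a pseudocount of 0.1), and the decitabine difference was not called (-0.08, 0.752). The combination was called lower (0.743-fold, 0.715 to 0.771; -0.43 ± 0.18, 0.0454). Leaving out any 1 of its 4 libraries ended the call (log2 change -0.50 to -0.36), as did a pseudocount of 0.1 (adjusted p = 0.364). No filter on low values (0.0835) and quantile normalization (0.105) also ended it. The call was kept with HepG2 fitted alone, and the lowest adjusted p over the alternatives was 4.49e-05. The SE of CCL20 is a single estimate over all 3 lines. The summed hepatocyte markers of HepG2 were 11217 to 11541 with decitabine, 10897 to 10933 with GSK-126 and 7095 to 7107 with the combination, where 1 of the 9, TTR, was called lower. ALB was not called, although it went from 5409 and 5537 in DPBS to 2048 and 2163 with the combination. These were 37.4% and 39.5% of its DPBS mean. The part of the hepatocyte markers in the CCL20 values was not tested.

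Outside HepG2, CCL20 was low and uneven between libraries. In SNU475 it was 0.568 and 0.141 in DPBS, 0.101 and 0.0855 with decitabine, 0.199 and 0.183 with GSK-126, and 0.212 and 0.199 with the combination, so that the DPBS libraries differed more from each other than the treated groups did. The called decrease with decitabine (-0.48, adjusted p = 0.0352) was -0.11 (0.583) without DPBS A, and was also not called without decitabine A (0.0915) or decitabine B (0.121). Without DPBS B, which left the higher DPBS library alone, the differences were called with GSK-126 (-0.63, adjusted p = 0.00212; -0.26 and 0.255 with all libraries) and with the combination (-0.60, 0.00249; -0.23 and 0.306), and so was the interaction (0.88, 0.00195; 0.51 and 0.135). DPBS A was the library with the raised hepatocyte sum: its ALB was 0.44% of the HepG2 DPBS mean and its CCL20 0.812%, against 0.0199% and 0.202% in DPBS B. In SNU398, CCL20 was 0.0321 and 0 in DPBS, 0.274 and 0.0725 with decitabine, 0.0844 and 0.0401 with GSK-126, and 0.0758 and 0.207 with the combination. No difference was called, but that of decitabine was without decitabine B (0.59, adjusted p = 0.0397; 0.37 and 0.123 with both). The decitabine difference was also called with a pseudocount of 0.1 (1.14, adjusted p = 0.037) and with voom on the recovered reads (3.33, 0.0151). That of the combination was called with voom (3.23, 0.017). The ratios to DPBS, which had 3 reads, were 10.5 (3.24 to 53.7) with decitabine, 3.70 (0.923 to 21.2) with GSK-126 and 8.94 (2.69 to 46.7) with the combination. Decitabine A of SNU398 had ALB at 0.404% and CCL20 at 0.392% of the HepG2 DPBS mean, against 0.00675% and 0.104% in decitabine B. The part of these hepatocyte RNAs in the CCL20 values was not tested.

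IL18 (ENSG00000150782, hg19 11:112013974-112034840) rose with decitabine in all 3 lines. In HepG2 it was 0.228 and 0.183 in DPBS, 1.18 and 1.17 with decitabine, 0.14 in both GSK-126 libraries, and 2.50 and 2.23 with the combination. In SNU398 it was 0.0659 and 0.076 in DPBS, 0.363 and 0.388 with decitabine, 0.107 and 0.0741 with GSK-126, and 0.434 and 0.438 with the combination. In SNU475 it was 7.16 and 7.21 in DPBS, 19.3 and 17.7 with decitabine, 6.79 and 7.25 with GSK-126, and 16.4 and 14.6 with the combination. In every line the libraries that received decitabine lay above all those that did not.

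The ratio of IL18 to DPBS with decitabine was 5.67 (4.15 to 7.89) in HepG2, 5.33 (3.44 to 8.55) in SNU398 and 2.57 (2.44 to 2.71) in SNU475, with log2 changes of 1.25 (adjusted p = 2.43e-10), 0.62 (1.23e-06) and 1.3 (1.61e-10), each ± 0.06. With the combination the ratios were 11.4 (8.45 to 15.7), 6.19 (4.01 to 9.93) and 2.15 (2.04 to 2.27), with log2 changes of 2.02 (4.12e-13), 0.71 (1.56e-07) and 1.06 (1.1e-09). GSK-126 alone was not called for IL18 in any line (-0.14, 0.05 and -0.03; adjusted p = 0.0614, 0.569 and 0.718), although in HepG2 its 2 libraries lay below DPBS (ratio 0.679, 0.416 to 1.09) and the difference was called without DPBS B (-0.19, 0.0476). Among all genes, 14.4% were called in the same direction with decitabine in HepG2 and SNU475 and 19.6% in HepG2 and SNU398.

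IL6 (ENSG00000136244, hg19 7:22765503-22771621) was at most 5 reads per library in SNU398 and 2 in HepG2. In SNU475 it was 2.24 and 1.98 in DPBS, 4.14 and 3.80 with decitabine, 1.51 and 1.56 with GSK-126, and 4.44 and 4.30 with the combination. All 4 groups were separate. IL6 rose 1.88-fold (1.70 to 2.07) with decitabine and 2.07-fold (1.87 to 2.29) with the combination, and fell to 0.726-fold (0.643 to 0.82) with GSK-126 (log2 changes 0.78, 0.90 and -0.36, each ± 0.05; adjusted p = 9.56e-09, 1.25e-09 and 3.45e-05). An antisense gene overlaps 13.8% of its 75-base windows, and the strand setting of the counting is not given in the sources used here.

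**Figure D2:**
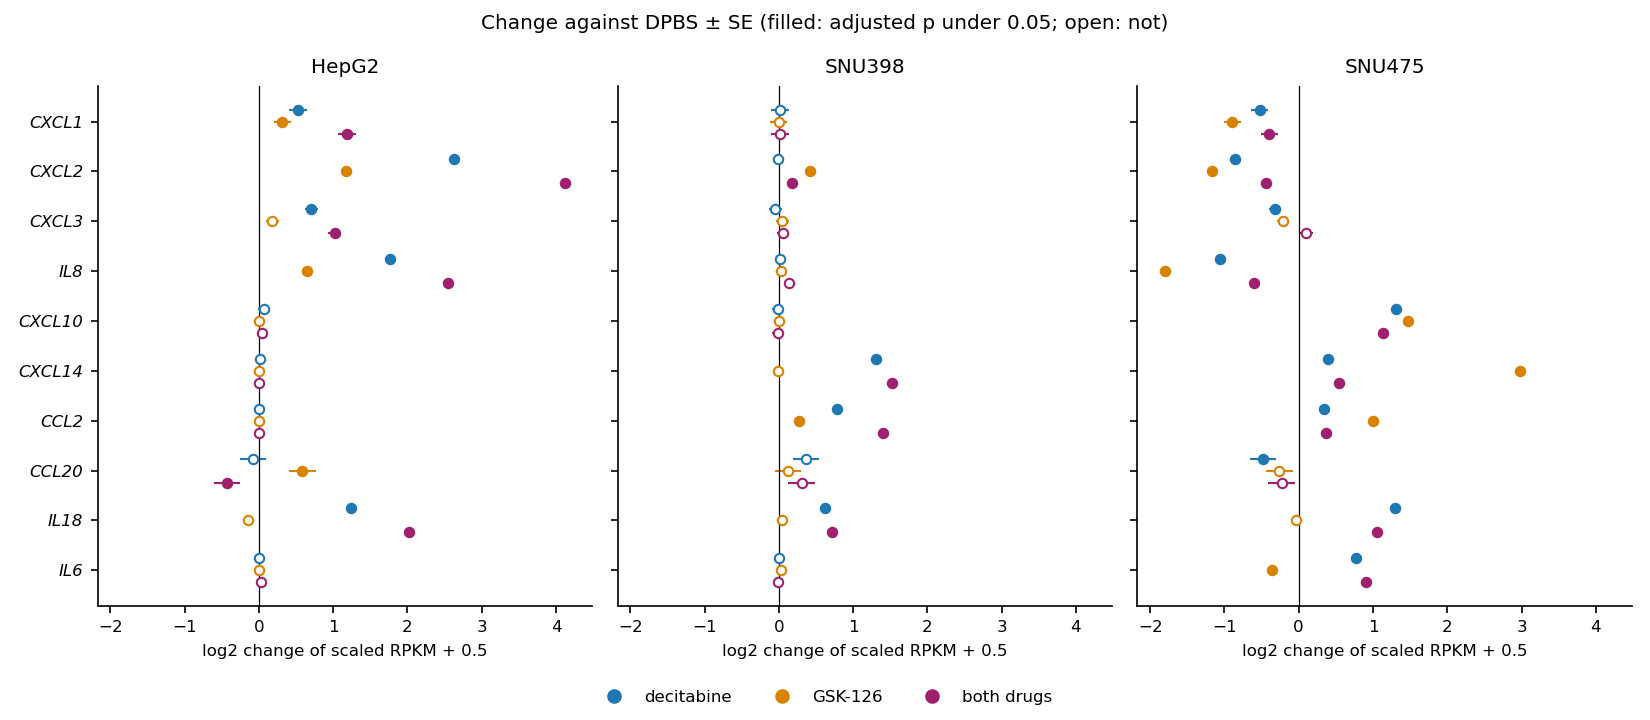
Log2 change from DPBS ± SE of each of the 10 genes, by line and treatment, on log2(scaled RPKM + 0.5); filled points were called. CXCL1, CXCL2 and IL8 lie above 0 in HepG2 and below 0 in SNU475, and IL18 lies above 0 in all lines with decitabine and with the combination.

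Counted over the 10 genes, 5 rose and none fell in HepG2 with decitabine (54.2% of all tested genes were called), 4 rose with GSK-126 (52.6%), and 5 rose and 1 fell with the combination (66.5%). In SNU398, 3 rose with decitabine (38.8%), 2 with GSK-126 (52.4%) and 4 with the combination (47.3%). In SNU475, 5 rose and 5 fell with decitabine (51.4%), 3 rose and 4 fell with GSK-126 (50%), and 5 rose and 3 fell with the combination (54.9%). The median log2 change of the 10 genes was 0.30, 0.09 and 0.53 in HepG2 (0.07, 0.03 and 0.08 over all genes), 0.02, 0.04 and 0.16 in SNU398 (0.02, 0.02 and 0.03), and 0.01, -0.24 and 0.24 in SNU475 (-0.01, -0.02 and -0.01), in the order decitabine, GSK-126, combination. Without SNU475 DPBS A, 9 genes were called with decitabine, 8 with GSK-126 and 8 with the combination. The shares of called members lay close to those of all genes in several comparisons, for example 4 of 10 beside 47.3% for the combination in SNU398. SNU398 and HepG2 effects differed in 7 of the 10 genes with decitabine (44% of all genes), 3 with GSK-126 (52.3%) and 8 with the combination (58.1%), and SNU475 and SNU398 effects in 9 (49.9%), 7 (56%) and 8 (56.5%). These counts include genes with almost no reads in a line, such as CXCL14 and CCL2 in HepG2 and CXCL1, CXCL10 and IL6 in SNU398. For such genes the difference largely restates the effect in the other line.

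The combination was also compared with each single drug. In HepG2, 5 genes were higher with the combination than with decitabine and none lower (55.8% of all genes called): CXCL2 was 2.93-fold (2.71 to 3.17), CXCL1 2.77-fold (1.68 to 4.70), IL18 2.01-fold (1.70 to 2.38), IL8 1.78-fold (1.64 to 1.93) and CXCL3 1.59-fold (1.11 to 2.29). The CXCL3 difference (log2 0.31, adjusted p = 0.0058) was not called without combination A (0.0931) or decitabine B (0.0509). CCL20 was not called against decitabine (-0.35, adjusted p = 0.115), although its combination libraries lay below those of decitabine (ratio 0.786, 0.756 to 0.817). It was called lower with HepG2 fitted alone (0.00225), with a pseudocount of 1 (0.0148) and with voom on the recovered reads (0.000146). Against GSK-126, the same 5 genes were higher and CCL20 was lower (65.7%; CCL20 -1.01 ± 0.18, adjusted p = 0.000132).

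In SNU398, CCL2 (log2 0.62 ± 0.05, adjusted p = 1.97e-06) and CXCL14 (0.21 ± 0.05, 0.00578) were higher with the combination than with decitabine (20.5% of all genes called), the latter not without decitabine A (0.0575). The CXCL14 difference was also not called with a pseudocount of 0.1 (0.30, adjusted p = 0.0945), with voom (0.34, 0.209) or with SNU398 fitted alone (0.21, 0.051). Against GSK-126, CXCL14, CCL2 and IL18 were higher and CXCL2 lower (50.1%). In SNU475, CXCL2 (0.42, adjusted p = 0.000342), CXCL3 (0.42, 0.00278) and IL8 (0.46, 0.000167) were higher with the combination than with decitabine, and IL18 was lower (-0.25, 0.0093; 18.3% of all genes called). That IL18 difference was not called without decitabine A (0.117) or combination B (0.129). Against GSK-126 in SNU475, 6 genes were higher (CXCL1, CXCL2, CXCL3, IL8, IL18 and IL6) and 3 lower (CXCL10, CXCL14 and CCL2; 35.9%). The CXCL14 difference was the largest of these, -2.44 ± 0.05 (adjusted p = 4.28e-14), a ratio of 0.146 (0.128 to 0.165). Of the others, CXCL1 was not called without combination B (0.0612), and CXCL3 was not called without combination A (0.0818) or GSK-126 B (0.0641).

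The interaction compares the combination with the sum of the single effects on the log2(scaled RPKM + 0.5) scale, where 0 means that they multiplied. In HepG2, IL18 (0.91 ± 0.08, adjusted p = 3.01e-07) and CXCL2 (0.32 ± 0.09, 0.00869) were above 0 and CCL20 below it (-0.93 ± 0.25, 0.00571; 53% of all genes called). In scaled RPKM, the gain of CXCL2 over DPBS was 7.32 with decitabine and 1.79 with GSK-126, together 9.11, and 23.2 with the combination. The CXCL2 interaction was 0.08 (adjusted p = 0.637) with a pseudocount of 0.1 and -0.07 (0.805) with voom on the recovered reads, and that of CCL20 was not called with a pseudocount of 0.1 (0.192). The summed gains of IL8 were 5.62 against 9.20 with both drugs (interaction 0.14, adjusted p = 0.227). For IL18 they were 0.901 against 2.16. The CXCL1 interaction was not called (0.35, adjusted p = 0.0942), but was without combination A (0.48, 0.0337) or decitabine B (0.46, 0.0432).

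In SNU475 the interaction was called in 8 genes (36.4% of all genes). It was above 0 for IL8 (2.26 ± 0.09, adjusted p = 2.62e-10), CXCL2 (1.59), CXCL1 (1.03), CXCL3 (0.63) and IL6 (0.48), and below 0 for CXCL14 (-2.84 ± 0.07, 1.49e-12), CXCL10 (-1.65) and CCL2 (-0.97). In scaled RPKM the IL8 differences from DPBS were -12.6 as the sum of the single drugs and -3.48 with both, and those of CXCL14 were 9.90 and 0.628. For CXCL10 they were 2.26 and 0.826. The IL18 interaction was not called (-0.21, adjusted p = 0.0607), but was without combination A (-0.30, 0.0133) or decitabine B (-0.28, 0.0341). In SNU398, 3 interactions were called (41.3%): CCL2 (0.35, adjusted p = 0.00126), CXCL14 (0.23, 0.0144) and CXCL2 (-0.24, 0.0471). That of CCL2 was 0.04 (0.895) with a pseudocount of 0.1 and -1.63 (0.0251) with voom. That of CXCL14 was not called with a pseudocount of 0.1 (0.36, 0.104), with voom (0.38, 0.779) or with SNU398 fitted alone (0.23, 0.0664). That of CXCL2 lost its call when any 1 of its 8 libraries was left out (0.0577 to 0.136). CXCL14 lost its call without DPBS A (0.0693), decitabine A (0.0588) or GSK-126 B (0.0572).

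**Figure D3:**
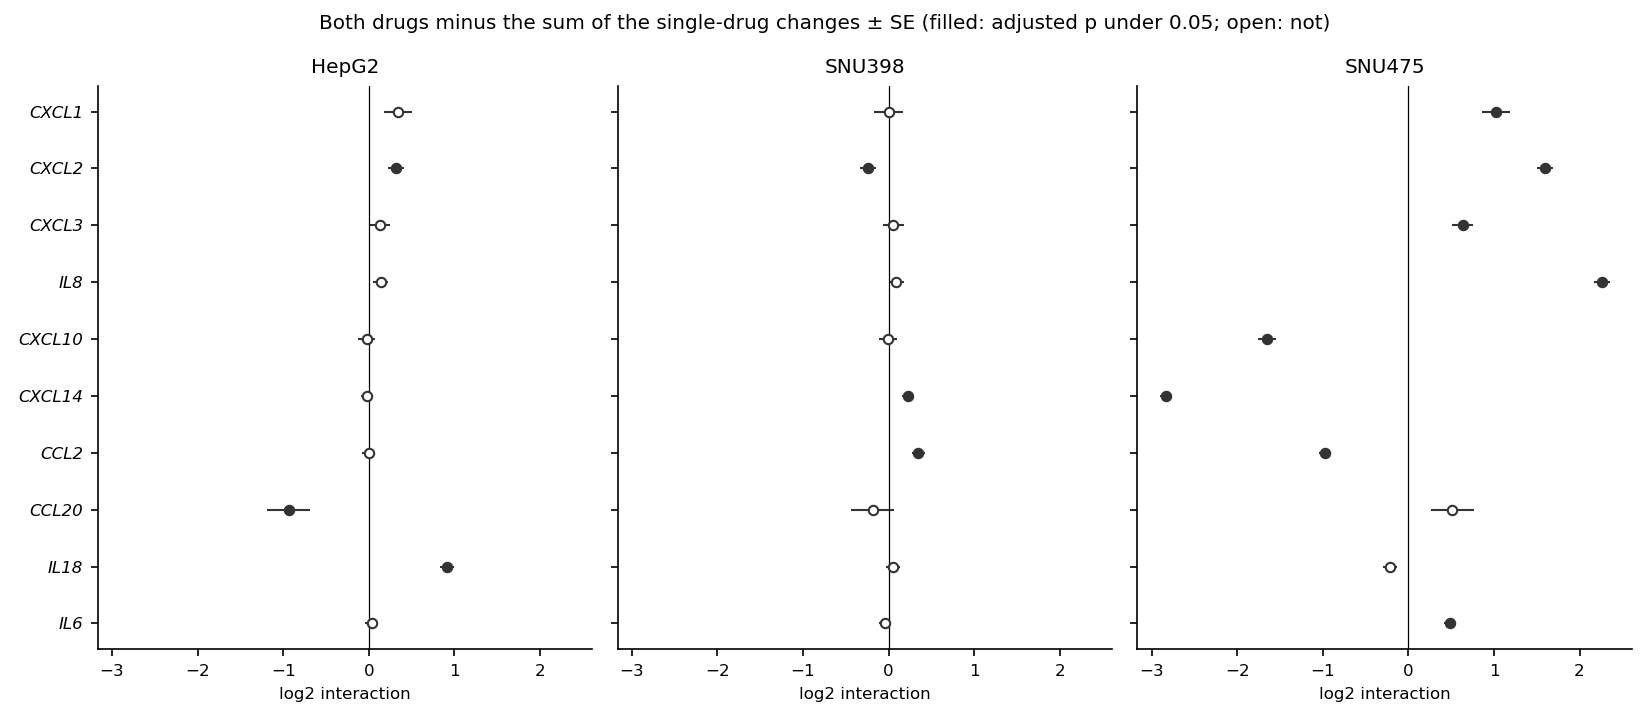
Interaction of decitabine and GSK-126 (the combination's log2 change less those of the single drugs, ± SE) for the 10 genes in each line; 0 means multiplied effects. In SNU475, IL8 is highest at 2.26 and CXCL14 lowest at -2.84.

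Other genes of these pathways were read from lists chosen by function. Of 22 NF-kB factors and targets other than the 10 genes, 20 rose and none fell in HepG2 with decitabine (median log2 change 0.51, 0.07 over all genes), 20 rose with GSK-126 (0.37, 0.03 over all genes), and 20 rose and 1 fell with the combination (0.87, 0.08 over all genes). Among all genes 35.9%, 31% and 40.6% were called higher. ICAM1, an adhesion molecule for leukocytes, went from 17.1 to 68.1 with the combination, and IER3, an early-response gene, from 21.3 to 103. RELB, an NF-kB subunit, went from 0.891 to 4.82. In SNU475 the list ran the other way: 6 rose and 12 fell with decitabine (-0.26), 1 rose and 15 fell with GSK-126 (-0.55), and 7 rose and 12 fell with the combination (-0.22). Among all genes in SNU475, 27.3%, 28.5% and 29.6% were called lower, and the medians were -0.01, -0.02 and -0.01. BIRC3, an inhibitor of apoptosis, went from 4.53 to 0.781 with GSK-126, and SOD2, the mitochondrial superoxide dismutase, from 12.2 to 3.43. With decitabine, GSK-126 and the combination, 11, 13 and 11 of the 22 were called higher in HepG2 and lower in SNU475, as were 11.3%, 10.3% and 12.1% of all genes. In SNU398, 11, 12 and 12 rose and 3, 2 and 3 fell (23.4%, 30% and 28.9% of all genes called higher), and IER3 went from 6.74 to 30.2 with GSK-126. The interaction was below 0 for 14 of the 22 and above 0 for 2 in HepG2 (median -0.45). There 27.9% of all genes were called below 0 and 25.1% above it (median -0.002). In SNU475 it was above 0 for 13 and below 0 for none (median 0.52), beside 19.7% and 16.7% of all genes (median 0.02).

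Among 29 other chemokine genes only 9 were expressed highly enough to test. In HepG2, 7 of the 9 rose with the combination and none fell (median 0.70, beside 40.6% of all genes called higher, 25.9% lower and a median of 0.08), among them CCL16, a chemokine made in liver, from 2.52 to 8.81, and CX3CL1, the membrane-bound ligand of CX3CR1, from 22.6 to 37.1. In SNU475, 2 rose and 3 fell with decitabine (median -0.09, beside 24.2% and 27.3% of all genes and a median of -0.01), with CCL26, an eosinophil attractant, going from 6.49 to 19.5. Of 23 other inflammatory cytokines 12 were tested, and in HepG2 7 rose and 3 fell with the combination (median 0.73, beside the same 40.6% and 25.9%): TNF went from 0.0459 to 1.08, LIF from 0.878 to 3.47 and CSF1, a macrophage growth factor, from 1.38 to 3.84. In SNU475, 4 rose and 5 fell with GSK-126 (median -0.10, beside 21.5% and 28.5% of all genes and a median of -0.02), where IL32 went from 7.61 to 1.64 and IL1B from 1.65 to 0.275. In the same line IL11, a relative of IL6, went from 0.807 to 4.30 with decitabine.

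Receptors and the proteins that handle IL18 were read in the same way. Of 16 receptors and signal chains 6 were tested, and in SNU475 none rose while 4 fell with decitabine, 5 with GSK-126 and 3 with the combination (medians -0.29, -0.41 and -0.40). Among all genes 27.3%, 28.5% and 29.6% were called lower, with medians of -0.01, -0.02 and -0.01. IL6ST, which encodes gp130, went from 40.9 to 24.2 with GSK-126, and IL6R, the IL6 receptor, from 6.65 to 4.42. In SNU398, 5, 5 and 6 rose and none fell (23.4%, 30% and 28.9% of all genes called higher), and in HepG2 4 rose and 2 fell with the combination (40.6% and 25.9%). Of 10 inflammasome and IL18-handling genes 7 were tested, of which 6 rose in HepG2 with decitabine and with the combination, and 5 and 6 in SNU475, with none falling (medians 0.54, 0.50, 0.44 and 0.47). All genes called higher in these 4 comparisons were 35.9%, 40.6%, 24.2% and 25.3%, with medians of 0.07, 0.08, -0.01 and -0.01. CASP1, which encodes the protease that cleaves the IL18 precursor, went from 3.37 to 6.51 in SNU475 with decitabine, and IL18BP, the secreted inhibitor of IL18, from 0.889 to 2.49. In HepG2 GSDMD, the pore-forming protein of pyroptosis, went from 2.93 to 8.08 with the combination.

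**Figure D4:**
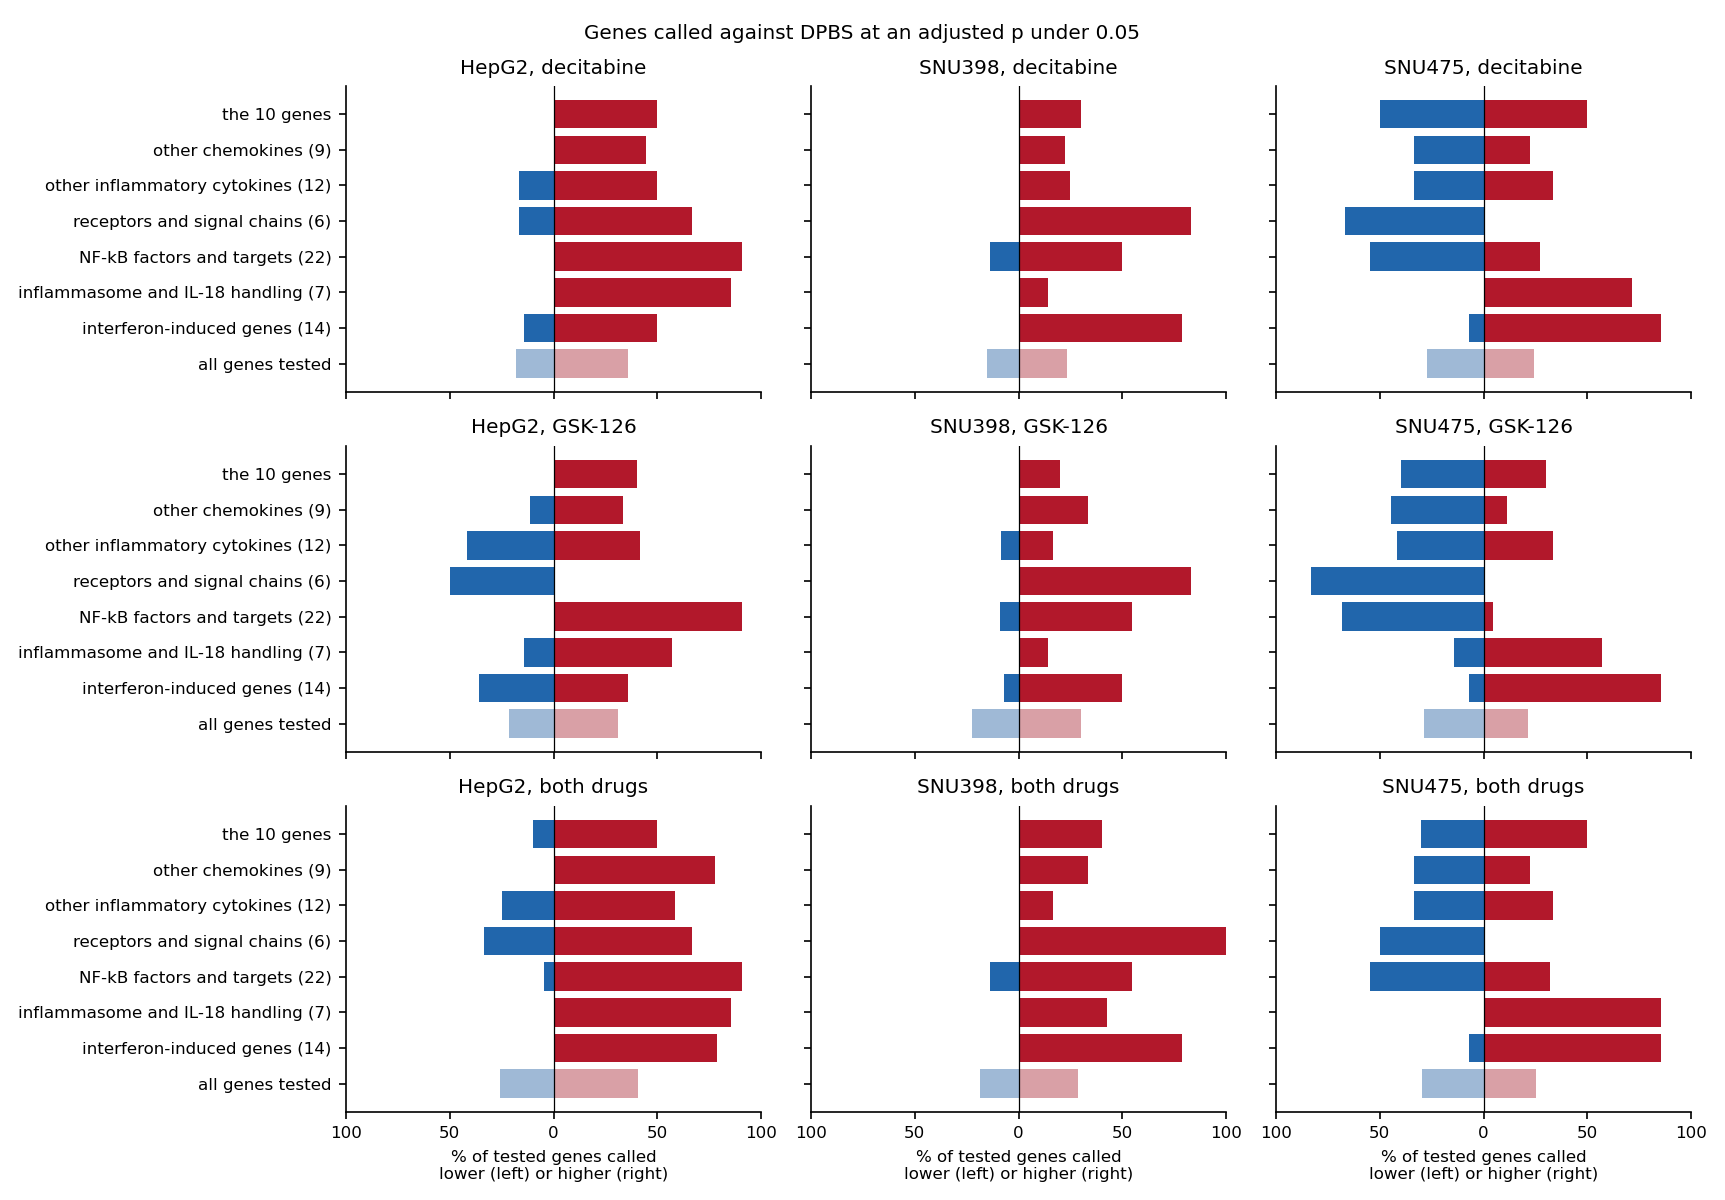
Percentage of tested genes called higher (right of 0) and lower (left of 0) than DPBS in each related list and among all tested genes, by line and treatment. In the NF-kB list 20 of 22 genes are higher in HepG2 with each treatment, and 12 to 15 are lower in SNU475.

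Markers of other cells moved in places. CD14, a myeloid surface marker, rose in HepG2 from 0.955 to 5.38 with decitabine and 4.56 with the combination, and fell in SNU475 from 12.1 to 5.54, 4.48 and 3.49. Of the 11 leukocyte and macrophage markers, PTPRC, CD3E, MS4A1, CD163 and MARCO were at 0 in the HepG2 DPBS libraries and only MS4A1 was at 0 with decitabine and with the combination. The list's summed level, mostly LYZ (lysozyme), was 438 to 452 in DPBS, 438 to 440 with decitabine, 173 to 177 with GSK-126 and 343 to 353 with the combination in HepG2. In SNU475 it was 14.4 to 15.0, 8.27 to 8.29, 5.50 to 5.61 and 5.72 to 6.35, and MS4A1 was at 0 throughout. The 5 endothelial markers summed to at most 1.34, with PECAM1 at 0 in every group. The 7 stellate and fibroblast markers summed to 8.37 to 22.4 in HepG2, 294 to 344 in SNU398 and 292 to 319 in SNU475, where ACTA2 (smooth-muscle actin) went from 48.4 to 188, 186 and 194 and COL3A1 (a fibrillar collagen) from 241 to 110, 92.2 and 81.6 with decitabine, GSK-126 and the combination. The part of these genes in the chemokine values was not tested.

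Over the 12 group means, centred within each line, the 4 neutrophil-attracting genes were correlated with each other at r = 0.836 to 0.969, as a description without a test, since the groups share their DPBS libraries and line. By the same measure over 16105 candidate genes, those most like CXCL1 were IL8 (0.969), RRAD (0.964) and RAMP1 (0.958), and those most like CXCL2 were HOMER2 (0.985), IGFALS (0.978) and IWS1 (0.971). CXCL3 was nearest to CXCL2 (0.954), and IL8 to ISG20 (0.974) and HOMER2 (0.962). For CXCL10 they were FATE1 (0.998), SOST (0.997) and IFI44L (0.991), for CXCL14 CNTFR (0.971), for CCL2 STC1 (0.978), for CCL20 GOPC (0.955), for IL18 LAPTM5 (0.989) and for IL6 AQP1 (0.997). CXCL14 and CCL2 were correlated at 0.865, and IL8 and CXCL10 at -0.454. Reads of CXCL10 and IL6 numbered at most 5 per library in HepG2 and SNU398, so their r values rest mainly on the SNU475 groups. CXCL14 and CCL2 in HepG2 and CXCL1 in SNU398 had at most 1 read per library, so their r values rest mainly on the other lines.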

How the data were processed

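Total RNA was sequenced in single reads of 75 bases from 24 libraries of 3 cell lines. Reads were aligned to hg19 with HISAT2 and assigned with featureCounts, per the submitters' processing notes; versions, annotation, strand setting and the handling of reads with several matches were not given in the sources used here. The deposited gene table holds RPKM as made by the authors. Whole reads were recovered from the steps between low values: in each library 100% of those checked came out whole within 0.15 reads. Reads in genes numbered 20424282 to 38398999 per library. A table of repeat loci was not used. The result for 1 listed gene is not reported here.

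RPKM was scaled by median-of-ratios factors (0.847 to 1.158) over 8211 genes. Tests covered the 19377 genes that reached 0.5 RPKM in 2 or more libraries, including all 10 members. CXCL1 and CXCL3 passed in 4 libraries each, CCL2 in 5, CXCL10 in 6, IL6 in 8, CCL20 in 9, CXCL14 and IL18 in 12, and CXCL2 and IL8 in 16. With a pseudocount of 0.5, log2 values of all 12 groups were fitted in limma 3.58.1 (R 4.3.3) with 12 residual degrees of freedom, two-sided tests and Benjamini-Hochberg adjustment over all genes. The model was tested on simulated data. Intervals are 95%, and the floor for a count of 0 is 3 reads over the group.

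The members and lists were chosen with earlier results of these data known. From each list, at most 3 called genes of the largest change, with libraries apart from DPBS and a higher group mean of at least 1 RPKM, were eligible to be named for a comparison, and for each member the 3 genes of highest correlation. Alternatives were other pseudocounts, filters and scalings, a replicate block, each line fitted alone, leaving out each library, and voom on the recovered reads.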

Additional observations from a re-analysis of the deposited data

Results flagged for a closer look

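Each value here is the difference between 2 lines in the log2 change from DPBS (first line minus second), called in limma with adjustment over all genes. A search for outlying libraries did not apply, since groups had 2 libraries. Of these 68, 41 kept direction and call with voom on the recovered reads, 21 lost the call and 6 reversed, and with a pseudocount of 0.1 these were 62, 4 and 2. Some members had almost no reads in a line: CXCL10, CXCL14, CCL2 and IL6 in HepG2 (at most 2 in a library), and CXCL1, CXCL10 and IL6 in SNU398 (at most 5). Their differences from that line largely restate the effect in the other line.

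With decitabine, SNU398 minus HepG2 was below 0 for CXCL1 (-0.51), CXCL2 (-2.63), CXCL3 (-0.75), IL8 (-1.75) and IL18 (-0.63, but -0.18 with voom on the recovered reads, adjusted p = 0.794). It was above 0 for CXCL14 (1.29) and CCL2 (0.78). With GSK-126 it was -0.75 for CXCL2 (0.89 with voom on the recovered reads, adjusted p = 0.173), -0.62 for IL8 (-0.37, 0.69 with voom) and 0.27 for CCL2. With the combination it was -1.17 for CXCL1, -3.94 for CXCL2, -0.96 for CXCL3, -2.41 for IL8 and -1.31 for IL18 (-0.93 with voom, adjusted p = 0.0759), and 1.52 for CXCL14, 1.40 for CCL2 and 0.74 for CCL20. As ratios of pooled reads to DPBS, IL18 rose alike with decitabine, 5.67-fold (4.15 to 7.89) in HepG2 and 5.33-fold (3.44 to 8.55) in SNU398.

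With decitabine, SNU475 minus HepG2 was below 0 for the neutrophil attractants CXCL1 (-1.05), CXCL2 (-3.48), CXCL3 (-1.03) and IL8 (-2.82), and above 0 for CXCL10 (1.25), CXCL14 (0.38; -0.54 with voom), CCL2 (0.34) and IL6 (0.78). With GSK-126 it was -1.21 for CXCL1, -2.35 for CXCL2, -0.39 for CXCL3, -2.45 for IL8, -0.85 for CCL20 and -0.36 for IL6, and 1.47 for CXCL10, 2.98 for CXCL14 and 1.0 for CCL2. With the combination it was -1.58 for CXCL1, -4.56 for CXCL2, -0.91 for CXCL3, -3.14 for IL8 and -0.96 for IL18, and 1.10 for CXCL10, 0.54 for CXCL14, 0.37 for CCL2 and 0.87 for IL6 (-0.79 with voom).

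With decitabine, SNU475 minus SNU398 was below 0 for CXCL1 (-0.54), CXCL2 (-0.85), IL8 (-1.07), CXCL14 (-0.91), CCL2 (-0.43) and CCL20 (-0.85), and above 0 for CXCL10 (1.33), IL18 (0.69; -0.13 with a pseudocount of 0.1 and -1.02 with voom) and IL6 (0.77). With GSK-126 it was -0.89 for CXCL1, -1.60 for CXCL2, -1.83 for IL8 and -0.38 for IL6, and 1.47 for CXCL10, 3.0 for CXCL14 and 0.73 for CCL2 (-0.77 with voom). With the combination it was -0.41 for CXCL1, -0.61 for CXCL2, -0.73 for IL8, -0.98 for CXCL14 and -1.03 for CCL2, and 1.16 for CXCL10, 0.34 for IL18 (-0.55 with a pseudocount of 0.1 and -1.49 with voom) and 0.91 for IL6.

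Leaving out 1 library ended the call for CXCL1 with decitabine in SNU398 minus HepG2 (adjusted p 0.0575 to 0.0961 without SNU398 decitabine A, HepG2 DPBS B or HepG2 decitabine B) and in SNU475 minus SNU398 (0.0712 without SNU475 DPBS B), and with the combination in SNU475 minus SNU398 (0.0752 to 0.229 when any 1 of 6 libraries was left out). It ended that for CCL20 with the combination in SNU398 minus HepG2 (0.0599 to 0.0895 without HepG2 combination A, SNU398 DPBS B or SNU398 combination B) and with decitabine in SNU475 minus SNU398 (0.0635 without SNU398 decitabine A). It also ended that for CXCL3 with GSK-126 in SNU475 minus HepG2 (0.0685 without HepG2 GSK-126 A and 0.0681 without SNU475 DPBS B). Without SNU475 DPBS A, 3 further differences were called: CXCL3 in SNU475 minus SNU398 with decitabine (-0.38, adjusted p = 0.023) and GSK-126 (-0.36, 0.025), and CCL20 in SNU475 minus HepG2 with the combination (0.57, 0.0137). Without SNU475 DPBS B, CCL20 was called in SNU475 minus HepG2 with decitabine (-0.77, 0.00251) and in SNU475 minus SNU398 with GSK-126 (-0.75, 0.0028) and the combination (-0.90, 0.000737). Harvest day differed between SNU475 and the other lines and cannot be told apart from the line.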

How the results depend on the processing

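With no scaling 295 of 300 single results (10 genes in 30 comparisons) kept direction and call, with quantile normalization 290, with a pseudocount of 1 288 and without a filter on low values 294. With a pseudocount of 0.1, 274 did, and the number of members called in the interaction fell to 1 in HepG2 and to 1 in SNU398. IL18 then reversed in the decitabine effect for SNU475 minus HepG2 (-0.71), for SNU475 minus SNU398 (-0.13) and in the combination effect for SNU475 minus SNU398 (-0.55). With voom on the recovered reads, 255 kept direction and call, and 9 reversed: the interactions of CXCL2 in HepG2 (-0.0709) and CCL2 in SNU398 (-1.63), IL18 in the same 3 line differences (-1.20, -1.02 and -1.49), CXCL2 for GSK-126 in SNU398 minus HepG2 (0.89), CXCL14 for decitabine (-0.54) and IL6 for the combination (-0.79) in SNU475 minus HepG2, and CCL2 for GSK-126 in SNU475 minus SNU398 (-0.77). Members called with voom were 1 in the SNU398 interaction, 1 for GSK-126 in SNU398 minus HepG2, 5 for decitabine and 5 for the combination in SNU475 minus HepG2, and 5 for decitabine and 4 for GSK-126 in SNU475 minus SNU398.

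Requiring RPKM of at least 1 left 15955 genes and 7 members, without CXCL1, CXCL3 and CCL2, and counts fell by construction: 3 for HepG2 decitabine, 3 for HepG2 combination against decitabine, 1 for SNU398 GSK-126, 1 for SNU398 combination against decitabine, 5 for the SNU475 interaction, 4 and 5 for decitabine and the combination in SNU398 minus HepG2, and 5 for decitabine in SNU475 minus HepG2. Leaving out 1 library gave 1 to 2 members called in the SNU398 interaction and 1 to 2 in SNU398 combination against decitabine. Over all tested genes, those called in the combination against decitabine went from 3539 to 2282 in SNU475 without decitabine A, and from 3973 to 2548 in SNU398 without decitabine B and 2638 without combination B. Apart from the stricter filter, the cause was not tested.

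Whether the letters A and B pair the libraries was not settled: same-letter deviations correlated at -0.118 to 0.244, and low correlations cannot exclude a pairing. With a replicate block, 298 of 300 single results kept direction and call, and CXCL2 in SNU398 lost its call with the combination (adjusted p = 0.0634) and in the interaction (0.0793), which left 3 and 2 members called. With the letters crossed in the SNU398 combination, chosen after seeing the data, 3 members and 9233 genes were called against DPBS and 2 and 3970 against decitabine. CXCL1 had at most 1 read in a SNU398 library, so no difference in it was detectable there at this depth.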
